A study of Mus musculus with 10 samples.

Results

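The cytosolic heat shock proteins and their cochaperones described here are 10 genes, taken by symbol from the 36586 named genes of the expression tables: Hspa8 of the HSP70 family, Hspa4 and Hsph1 of the HSP110 family, Hsp90aa1 and Hsp90ab1 of the HSP90 family, the J proteins Dnaja1 and Dnajb1, the small heat shock proteins Hspb1 and Cryab, and the BAG protein Bag3. The rule uses the symbol alone, and all 10 were found in each of the 3 tables. RAD23B is a partner of the DNA damage sensor XPC, and the study asked where RAD23B lies on chromatin in mouse embryonic stem cells and how RNA differs without it. RAD23B was immunoprecipitated with an affinity-purified guinea pig antibody from wild-type cells of the D3 line in 2 replicates and from Xpc-/- cells in 1 library, each set against normal guinea pig IgG. Poly-A RNA came from the JM8.N4 line as 1 library each of wild-type cells, Rad23b-/- cells (Rad23b-null), and Rad23b-/- cells carrying 1 of 2 independent shRNAs to Xpc (knockdown 1 and knockdown 2). All 3 mutant RNA libraries are therefore Rad23b-/- by label, no library has Xpc knocked down in Rad23b wild-type cells or carries a control shRNA, and the labels do not say whether a line is 1 clone. Chromatin and RNA were measured in different cell lines.

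HSP70 proteins bind exposed hydrophobic stretches of unfolded proteins and release them in a cycle driven by ATP. J proteins deliver clients and stimulate the ATP hydrolysis, while HSP110 and BAG proteins speed the exchange of nucleotide that releases the client. HSP90 acts later on clients such as kinases and steroid receptors, and small heat shock proteins hold unfolded proteins without using ATP. Heat shock factors bind arrays of inverted nGAAn units, the heat shock element, at many of these genes. Embryonic stem cells are known to make much HSC70, the product of Hspa8, and much HSP90.

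The RefSeq promoter table (GRCm38.p6) held windows of 250 bases before to 50 after a start for 6 of the 10 genes, 10 windows in all. Hspa8, Hsp90aa1, Hsp90ab1 and Cryab had none. A pair of units was searched as GAANNTTC or TTCNNGAA, and a full element of 3 units as such a pair followed by NN and the unit that opened it, both on both strands, so that each full element also holds overlapping pairs. These windows are printed because they show how far the members share the motif of the heat shock factors, with every match in capitals and Hspa4 as a member without one.
Hsph1, chr5:149636287-149636586, minus strand: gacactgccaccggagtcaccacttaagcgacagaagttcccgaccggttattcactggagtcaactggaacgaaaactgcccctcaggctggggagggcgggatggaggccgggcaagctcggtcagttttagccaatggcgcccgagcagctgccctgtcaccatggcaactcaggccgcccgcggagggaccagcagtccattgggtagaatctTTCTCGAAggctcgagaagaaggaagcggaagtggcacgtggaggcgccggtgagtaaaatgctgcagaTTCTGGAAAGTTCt
Hspb1, chr5:135887669-135887968, plus strand: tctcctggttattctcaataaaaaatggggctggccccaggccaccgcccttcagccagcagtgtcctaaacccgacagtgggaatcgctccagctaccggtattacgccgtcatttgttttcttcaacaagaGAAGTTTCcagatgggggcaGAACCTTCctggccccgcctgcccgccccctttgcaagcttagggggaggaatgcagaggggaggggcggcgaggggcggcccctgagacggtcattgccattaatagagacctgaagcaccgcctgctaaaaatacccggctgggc
Bag3, chr7:128523333-128523632, plus strand: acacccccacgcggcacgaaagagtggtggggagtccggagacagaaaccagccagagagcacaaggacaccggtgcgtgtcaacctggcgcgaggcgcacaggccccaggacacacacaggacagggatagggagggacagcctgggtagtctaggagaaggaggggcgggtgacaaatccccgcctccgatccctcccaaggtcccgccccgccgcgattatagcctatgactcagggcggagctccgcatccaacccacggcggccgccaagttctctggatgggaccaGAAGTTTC
Dnaja1, chr4:40722218-40722517, plus strand: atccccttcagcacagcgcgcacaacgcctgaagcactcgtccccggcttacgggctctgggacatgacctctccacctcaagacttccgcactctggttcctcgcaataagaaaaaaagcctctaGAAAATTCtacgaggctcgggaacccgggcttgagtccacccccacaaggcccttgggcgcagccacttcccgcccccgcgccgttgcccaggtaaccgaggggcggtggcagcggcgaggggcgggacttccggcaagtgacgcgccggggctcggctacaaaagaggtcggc
Hspa4, chr11:53300430-53300729, minus strand: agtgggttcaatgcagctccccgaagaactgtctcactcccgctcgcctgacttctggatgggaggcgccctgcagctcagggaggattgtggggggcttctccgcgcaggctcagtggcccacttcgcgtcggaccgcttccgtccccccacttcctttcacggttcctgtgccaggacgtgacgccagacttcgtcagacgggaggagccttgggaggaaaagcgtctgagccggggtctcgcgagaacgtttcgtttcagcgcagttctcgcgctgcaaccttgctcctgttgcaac

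Of the 6 genes, 1 held a full element. It was Hsph1, whose match TTCTGGAAAGTTC began at position 37 in the window printed and at position 16 in its other window, where position 1 is the start. A full element stood in 0.603% of the 32851 windows counted, which were those of full length, with 1 chromosome left out. A pair of units stood in 4 of the 6 genes: Hsph1, Hspb1 at positions -117 and -97, Bag3 at position 43, and Dnaja1 at position -124 in 1 of its 3 windows. Pairs stood in 15.1% of those 32851 windows, so a pair is a common match. Counted by window, 5 of the members' 10 held a pair and 2, both of Hsph1, held a full element. Hspa4 and Dnajb1 held neither, and TATAAA was found in none of the 6 genes, against 13.6% of the 32851 windows. A match is a string of letters in this window and not a measured site.

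Expression is given as RPKM, reads normalised to transcript length and to the mapped reads of the library, which allows levels of different genes to be compared. With 1 library per group there was no replicate error and no test, so every difference below describes these 4 libraries. Ratios are log2 of RPKM + 1, mutant over the wild-type value of the same table, a scale that understates the difference of low genes. Of the 3 mutants, Rad23b RNA stood at 19.1%, 16.1% and 23.3% of wild type in Rad23b-null, knockdown 1 and knockdown 2, and Xpc RNA at 95.5%, 10.8% and 10.4%. Rad23b RNA was thus lower and not absent in the lines labelled Rad23b-/-, and the labels do not give the deleted part of the gene. All 8 embryonic stem cell markers looked for were above 1 RPKM in every library, with a sum of 4189 to 5927 RPKM, but not at equal levels. Nanog stood at 512 RPKM in wild type and at 197, 243 and 209 in Rad23b-null, knockdown 1 and knockdown 2, and Esrrb at 162, 51.5, 77.0 and 60.2. In the same order Pou5f1 stood at 1603, 1152, 1468 and 1431 and Sox2 at 184, 123, 135 and 133. Dppa5a stood at 2040, 1400, 2296 and 1669, and Lin28a at 77.7, 67.8, 73.9 and 63.3. Zfp42 was nearly level at 44.6, 47.0, 42.4 and 42.3. Tdgf1 was higher in each mutant, at 1087, 1151, 1593 and 1304. Of 6 primitive endoderm markers 2 reached 1 RPKM in every library, Gata4 at 1.26, 3.02, 2.70 and 2.67 and Sox7 at 1.15, 2.76, 2.88 and 2.38. The others stayed below 1 RPKM throughout, Gata6 at 0.961, 0.933, 0.709 and 0.866. Sums over the list were 3.82 in wild type and 6.47 to 7.27 in the mutants. Of 5 trophectoderm markers 2 reached 1 RPKM in wild type and 3 in each mutant, with sums of 25.5 to 53.2 RPKM. Most of each sum was Krt8, at 21.4, 23.5, 18.8 and 10.8, and Krt18, at 18.4, 25.6, 20.6 and 12.1. Hand1 stood at 0.329, 3.31, 3.48 and 1.70. The 2 matched neural markers summed to 6.09 to 9.11 RPKM. Of 8 fibroblast markers, a sign of feeder cells, 0 reached 1 RPKM in wild type and 1, Thy1, did in each mutant, and Postn was listed at 0 throughout. Whether these markers bear on the members' levels was not tested. Relative to wild type, the mutants were 1.22 to 1.29 times as deep, judged by the step size of low values. Genes with high levels were lower in the mutants as a group: the median ratio over the 1215 genes with a mean of at least 100 RPKM was -0.41, -0.26 and -0.33, against -0.16, -0.14 and -0.14 over all genes tested. The part of depth and of this shift in the members' values was not tested. In bulk RNA, fewer cells of a type and less RNA per cell cannot be told apart.

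Hspa8, which encodes the constitutive HSP70 of the cytosol, had the highest wild-type level of the 10. Its listed locus in mm9 is chr9:40609066-40613283. Its level was 6691 RPKM in wild type, 2894 in Rad23b-null, 3518 in knockdown 1 and 2917 in knockdown 2. All 3 mutants lay far below wild type, at 43.3%, 54.0% and 44.3% of its level. The log2 ratios were -1.21, -0.89 and -1.17. Hspa8 was the only member at least 2-fold lower than wild type in any mutant: 1 of 10 in Rad23b-null, where 4.61% of all genes tested were, 0 of 10 in knockdown 1, where 3.4% were, and 1 of 10 in knockdown 2, where 3.6% were. Among genes with a mean of at least 100 RPKM, 8.4%, 3.7% and 5.1% were that much lower. Hspa8 ranked 22 among all named genes in wild type.

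Of 864 genes with coordinates of their own and at least 100 RPKM in wild type, those whose 3 ratios lay closest to Hspa8 were Gm8355, Tuba1a, an alpha tubulin, Slc25a39, a mitochondrial carrier, Npm1, which encodes nucleophosmin, and Gm14681. Their Euclidean distances over the 3 mutant libraries ran from 0.0632 to 0.134 log2 units. Npm1, the most abundant of the 5, stood at 4787, 2151, 2504 and 2256 RPKM in wild type, Rad23b-null, knockdown 1 and knockdown 2. The 3 ratios share 1 wild-type library.

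HSP110 proteins act as nucleotide exchange factors of HSP70. Hspa4 (chr11:53073315-53113959) stood at 560.4 RPKM in wild type, 299 in Rad23b-null, 321 in knockdown 1 and 309 in knockdown 2, or 53.4%, 58.9% and 56.1% of wild type. Hsph1 (chr5:150416861-150438951), which also encodes an HSP110 protein, stood at 120.1, 72.1, 72.1 and 69.8 RPKM in the same order. Both genes were lower in every mutant, by similar amounts: the ratios were -0.90, -0.76 and -0.83 for Hspa4 and -0.73, -0.69 and -0.75 for Hsph1. Hspa4 exceeded Hsph1 by 4.67-fold in wild type and by 4.15-fold to 4.46-fold in the mutants. Hspa8 RNA exceeded that of Hspa4 by 11.9-fold in wild type and by 9.67-fold, 10.9-fold and 9.44-fold in the mutants.

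The 2 cytosolic HSP90 genes differed in how far they lay below wild type. Hsp90aa1 (chr12:111928814-111940938), the heat-inducible gene, stood at 5505 RPKM in wild type, 4036 in Rad23b-null, 4908 in knockdown 1 and 4129 in knockdown 2. Hsp90ab1 (chr17:45704723-45710220), the constitutive gene, stood at 5348, 3071, 3653 and 3302 RPKM. Hsp90ab1 was further below wild type in every mutant, with ratios of -0.80, -0.51 and -0.67 against -0.45, -0.13 and -0.39 for Hsp90aa1. The quotient of Hsp90aa1 over Hsp90ab1 was 1.03 in wild type and 1.31, 1.34 and 1.25 in the mutants. In knockdown 1 Hsp90aa1 lay beside the median of all genes, and centring on that median turned its sign, to 0.015.

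Hspa8 and the HSP90 genes exchanged places. In wild type the order of the 3 levels was Hspa8, Hsp90aa1, Hsp90ab1, and in all 3 mutants it was Hsp90aa1, Hsp90ab1, Hspa8. Hspa8 over the sum of both HSP90 genes was 0.616 in wild type and 0.407, 0.411 and 0.392 in the mutants. These 3 genes supplied 93.5% of the summed RPKM of the 10 in wild type and 92.1% to 92.9% in the mutants. The 10 genes together summed to 18755 RPKM, or 0.801% of all RPKM, in wild type. The sum was 10863, 12995 and 11165 RPKM in Rad23b-null, knockdown 1 and knockdown 2, or 0.512%, 0.626% and 0.499%.

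**Figure D1:**
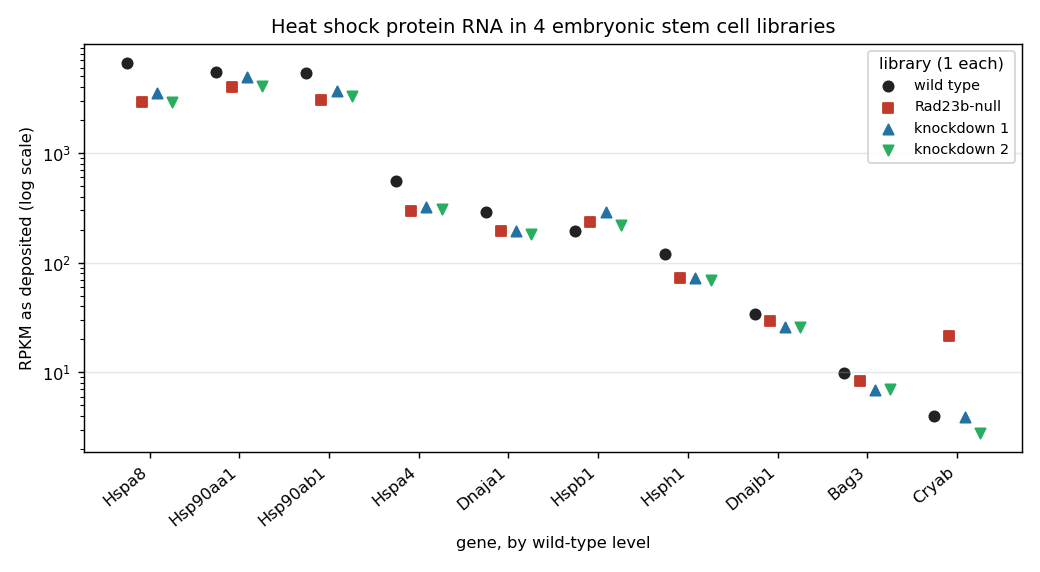
RPKM on a log axis of the 10 genes, ordered by wild-type level, with 1 point per library in each of the 4 RNA libraries. Wild type is above all 3 mutants at Hspa8, Hsp90aa1, Hsp90ab1, Hspa4, Dnaja1, Hsph1, Dnajb1 and Bag3, is lowest at Hspb1, and only Rad23b-null stands apart at Cryab.

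The J proteins Dnaja1 and Dnajb1 are partners of HSP70. Dnaja1 stood at 288 RPKM in wild type, 195 in Rad23b-null, 196 in knockdown 1 and 183 in knockdown 2, with ratios of -0.56, -0.51 and -0.62. Its listed coordinates, chr4:40667186-40704956 of mm9, are the same as those of Smu1 and Gm6297 on the opposite strand. These genes were listed at different levels, so the levels are not a common value of a merged locus. How the reads were divided among the genes is unknown. Smu1, a splicing factor gene, was listed at 105, 87.1, 88.3 and 73.9 RPKM. Dnajb1 (chr8:86132073-86135801), which is strongly induced by heat, stood at 34.3, 29.3, 26.1 and 25.8 RPKM, with ratios of -0.22, -0.35 and -0.37. Bag3 (chr7:135667096-135690491), the exchange factor that links HSP70 to autophagy, was low in all libraries at 9.82, 8.30, 6.95 and 7.12 RPKM, with ratios of -0.22, -0.41 and -0.39. Dnajb1 and Bag3 thus lay below wild type in each mutant, by less than Hspa8, Hspa4 and Hsph1.

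Hspb1 and Cryab, the small heat shock proteins among the 10, each stood above wild type in at least 1 mutant. Hspb1 (chr5:136363788-136365433), which encodes HSP27, stood at 194 RPKM in wild type, 237 in Rad23b-null, 289.8 in knockdown 1 and 219 in knockdown 2. It was the only member above wild type in all 3 mutants, with ratios of 0.29, 0.62 and 0.20. Its place in the order moved from below Dnaja1 in wild type to above it in every mutant. Between the knockdowns, with their tables on 1 scale, the log2 ratio of Hspb1 was -0.42, which was wider than the distance of knockdown 2 from wild type.

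Cryab (chr9:50560862-50564738), which encodes alpha B crystallin, stood at 4.00 RPKM in wild type, 21.7 in Rad23b-null, 3.89 in knockdown 1 and 2.79 in knockdown 2. Rad23b-null alone was high, at 5.42-fold the wild-type level and a ratio of 2.18. The knockdown ratios were -0.0029 and -0.38, and centring turned the first to 0.14. Cryab was the 1 member of 10 at least 2-fold higher in Rad23b-null, where 4.74% of all genes tested were. In the knockdowns 0 of 10 were, against 3.95% and 3.93% of genes. With the tables put on 1 scale by their wild-type columns, the log2 ratios of the knockdowns over Rad23b-null at Cryab were -2.18 and -2.56. Both knockdowns are Rad23b-/- as well, so the high value stood in 1 of the 3 Rad23b-/- libraries. Hspb2, the small heat shock protein gene next to Cryab, was listed at 1.23, 1.92, 1.03 and 1.62 RPKM.

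Below wild type were 8, 9 and 9 of the 10 genes in Rad23b-null, knockdown 1 and knockdown 2, where 62.9%, 63.8% and 62.7% of all genes tested were, and 84.8%, 77.1% and 81.4% of genes with a mean of at least 100 RPKM. Across the 3 mutants together, 8 of the 10 lay below wild type each time, the exceptions being Hspb1 and Cryab. That held for 50.4% of all genes and for 72.5% of genes with a mean of at least 100 RPKM. The members' median ratio was -0.50, -0.46 and -0.51 in Rad23b-null, knockdown 1 and knockdown 2. Relative to the median of all genes tested, 8, 7 and 9 of the 10 were lower. The members' medians lay below those of the genes with a mean of at least 100 RPKM in each mutant, by less than the members differed among themselves.

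**Figure D2:**
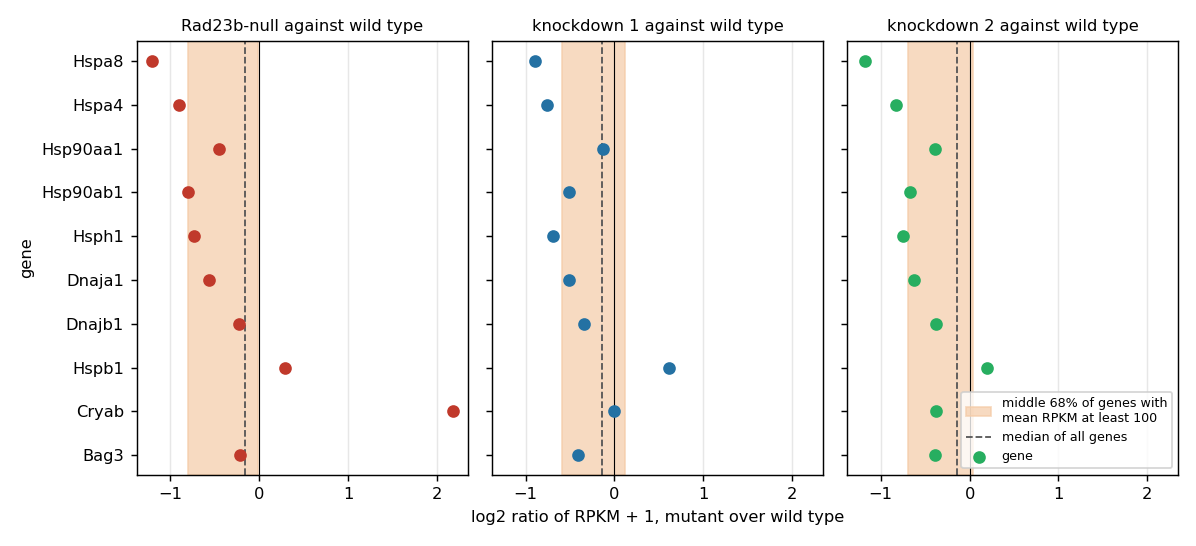
Log2 ratio of RPKM + 1 over wild type for the 10 genes in each mutant library, 1 point per gene, with the median of all genes as a dashed line and the middle 68% of genes with a mean of at least 100 RPKM as a band. Hspa8 and Hspa4 lie to the left of the band in every panel, Hspb1 to its right, and Cryab stands at 2.18 in Rad23b-null alone.

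The p-values for these genes in the authors' deposited table ran from 0.180 (Hspb1 in knockdown 1) to 0.999 (Cryab in knockdown 1). Below 0.05 were 0 of the 30 values from the authors' deposited table, against 2.77%, 2.76% and 2.74% of all genes tested. Those p-values rest on 1 library a group. Hspa8, with the largest ratio below wild type, had 0.996 in Rad23b-null in the authors' deposited table.

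The knockdowns were set against Rad23b-null and against each other. By label they differ from it by an shRNA to Xpc, so that the knockdown of Xpc and the presence of an shRNA cannot be told apart. At least 2-fold apart from Rad23b-null was 1 member of 10 in knockdown 1, where 3.62% of all genes were, and 1 of 10 in knockdown 2, where 3.46% were. The gene was Cryab each time. Between the 2 knockdowns 0 of 10 were that far apart, against 3.38% of all genes. There the ratios of the 10 genes had an SD of 0.15 across genes, which are not replicates, and a median of -0.14. The members' median was 0.09 in knockdown 1 and -0.04 in knockdown 2 against Rad23b-null. Apart from Cryab, the members differed from Rad23b-null by at most 0.33 log2 units, the value of Hspb1 in knockdown 1.

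Other chaperone genes of these pathways were on lists of 82 genes, 79 of which were matched and 73 of which had at least 1 RPKM in wild type or a mutant. At least 2-fold lower were 2, 3 and 3 of the 73 in Rad23b-null, knockdown 1 and knockdown 2, and at least 2-fold higher were 2 in each. Of all genes tested, 4.61%, 3.4% and 3.6% were that much lower and 4.74%, 3.95% and 3.93% that much higher, so these counts are near the background. Below wild type were 55, 55 and 56 of 73, with medians of -0.34, -0.29 and -0.34. The shares below wild type were 62.9%, 63.8% and 62.7% over all genes tested and 84.8%, 77.1% and 81.4% over genes with a mean of at least 100 RPKM.

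TRiC, the ring chaperonin that folds actin and tubulin, and prefoldin, which feeds it, were below wild type throughout. All 13 matched subunits had ratios below 0 in each mutant, with medians of -0.55, -0.47 and -0.54. Genes with a mean of at least 100 RPKM, the level of many of these subunits, had medians of -0.41, -0.26 and -0.33, with 84.8%, 77.1% and 81.4% below 0. Cct4, a TRiC subunit named for its values, stood at 919 RPKM in wild type, 455 in Rad23b-null, 497 in knockdown 1 and 437 in knockdown 2. Of 17 matched HSP90 cochaperones, 16, 15 and 15 were below wild type, with medians of -0.46, -0.43 and -0.50. The share below wild type over all genes was 62.9%, 63.8% and 62.7%. At least 2-fold lower were 0 of the 17, against 4.61%, 3.4% and 3.6% of all genes. Stip1, chosen after its values were seen because its product hands clients from HSP70 to HSP90, stood at 310.3, 191, 223 and 196 RPKM.

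The other genes of the HSP70 system had medians of -0.17, -0.07 and -0.09 over 28 genes, with values on both sides of 0. Dnajc6, which encodes the clathrin-uncoating J protein auxilin, was at least 2-fold lower in all 3 mutants, at 17.5, 7.01, 5.78 and 5.45 RPKM, and shares its listed coordinates with another gene. Stub1, the ubiquitin ligase CHIP that acts on chaperone clients, was listed at 52.6, 731, 747 and 915 RPKM, on coordinates listed for 18 genes, with p-values of 0.861, 0.828 and 0.814 in the authors' deposited table. The stress-inducible HSP70 genes were low, and were named after their values were seen: Hspa1b stood at 2.97, 5.57, 3.95 and 4.06 RPKM and Hspa1a, on shared coordinates, at 0.917, 2.66, 1.98 and 1.74. Hspb8, the small heat shock protein that binds BAG3, stood at 43.5, 21.4, 17.4 and 20.3 RPKM in the 4 libraries and was named after its values were seen. The log2 ratios of RPKM + 1 of Hspb8 were -0.99, -1.24 and -1.04, so only the pseudocount kept Rad23b-null from counting as 2-fold lower, and its p-values were 0.074, 0.010 and 0.032 in the authors' deposited table. Mitochondrial chaperones, 6 genes, had medians of -0.50, -0.29 and -0.33.

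Of the heat shock factors, Hsf1, the main stress-activated factor, stood at 18.1 RPKM in wild type, 16.6 in Rad23b-null, 13.2 in knockdown 1 and 15.6 in knockdown 2. Hsf2 stood at 36.7, 26.9, 26.7 and 26.0 RPKM. Both were below wild type in every mutant and by less than 2-fold. Hsf4, best known from the lens, stood at 0.709, 4.61, 3.24 and 3.40 RPKM and was at least 2-fold higher in all 3, with p-values of 0.032, 0.059 and 0.057 in the authors' deposited table.

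**Figure D3:**
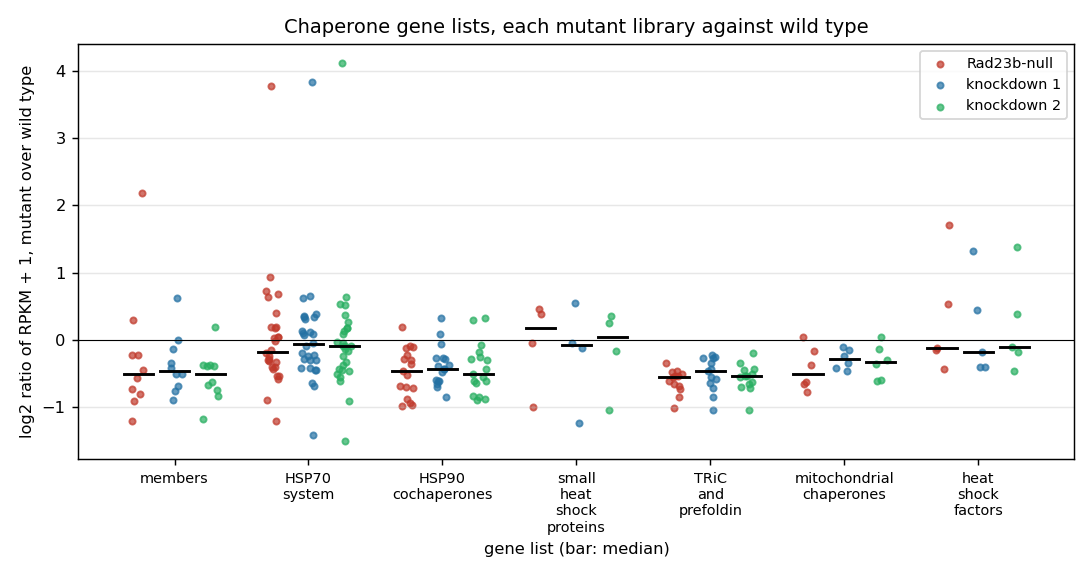
Log2 ratio of RPKM + 1 over wild type for the 10 genes and 6 lists of other chaperone genes, 1 point per gene with at least 1 RPKM, coloured by mutant library, with the median of each as a bar. All points of TRiC and prefoldin lie below 0, and the points near 4 are Stub1.

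RAD23B occupancy was read from 1 list of regions per RAD23B library, called by the authors against IgG in mm9, with 59768 regions in wild-type replicate 1, 42364 in replicate 2 and 828 in the Xpc-null library. The libraries in which they were called had 109 M, 62.5 M and 145 M reads. The fold of a region is the authors' ratio of RAD23B over IgG reads after scaling, and its p-value is the authors' too. The Xpc-null list gives a fold that matches its IgG-headed reads divided by its RAD23B-headed reads. The lowest maximum of a region in that list was 65 reads, above the median of 42 reads headed RAD23B. The median of reads headed IgG was 82. The regions thus go with the reads headed IgG. Whether the headings were exchanged is unknown, and so is the direction of those values. The headings of its fold and p-value name the IgG library of replicate 1. In the replicate 2 list the headings name the replicate 1 libraries.

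All 10 members had a region in or within 5 kb of the locus in both wild-type lists. That held for 77% of the 8447 genes with coordinates of their own and at least 1 RPKM in wild type, and for 77.6% of such genes with a mean of at least 100 RPKM. Within 1 kb of the start, 9 of 10 members had a region in both lists, against 66.7% and 70.2% of those genes. The exception was Dnaja1, whose listed start is that of the locus shared with Smu1. Around the 10 loci lay 36 regions in replicate 1, of which 27 overlapped a region of replicate 2, and 32 in replicate 2, of which 31 overlapped replicate 1. Over the whole lists, 38822 of the 59768 regions of replicate 1 and 40632 of the 42364 of replicate 2 overlapped the other list. The members' counts were not tested against these. The regions lay over the start at 8 genes in replicate 1 and at 7 in replicate 2.

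The folds at these genes were moderate. The median over the members' regions was 1.76 in replicate 1 and 1.90 in replicate 2, against 1.88 and 2.09 over all regions of the lists. The range was 1.22 to 3.04 and 1.37 to 3.64. A fold of at least 2 was reached by 14 regions at 6 genes in replicate 1 and by 14 regions at 5 genes in replicate 2. Dnaja1 counted in replicate 1 only by a region 37.3 kb from the listed start of the locus it shares with Smu1. Such folds were common in the lists. Counted from the lowest fold, 2.04 stood at percentile 60.7 of all regions in replicate 1, and 1.98 at percentile 43.4 in replicate 2. The members' regions had a median percentile of 40.5 in replicate 1 and 37.7 in replicate 2. The 31 overlapping pairs had a median quotient of replicate 2 over replicate 1 of 1.07, with a range of 0.865 to 1.36, and 22 were higher in replicate 2. They come from 27 regions of replicate 1, as the start regions of Hsp90aa1, Hsp90ab1 and Hspb1 each stand in more than 1 pair. The median fold of the whole list was also higher in replicate 2.

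**Figure D4:**
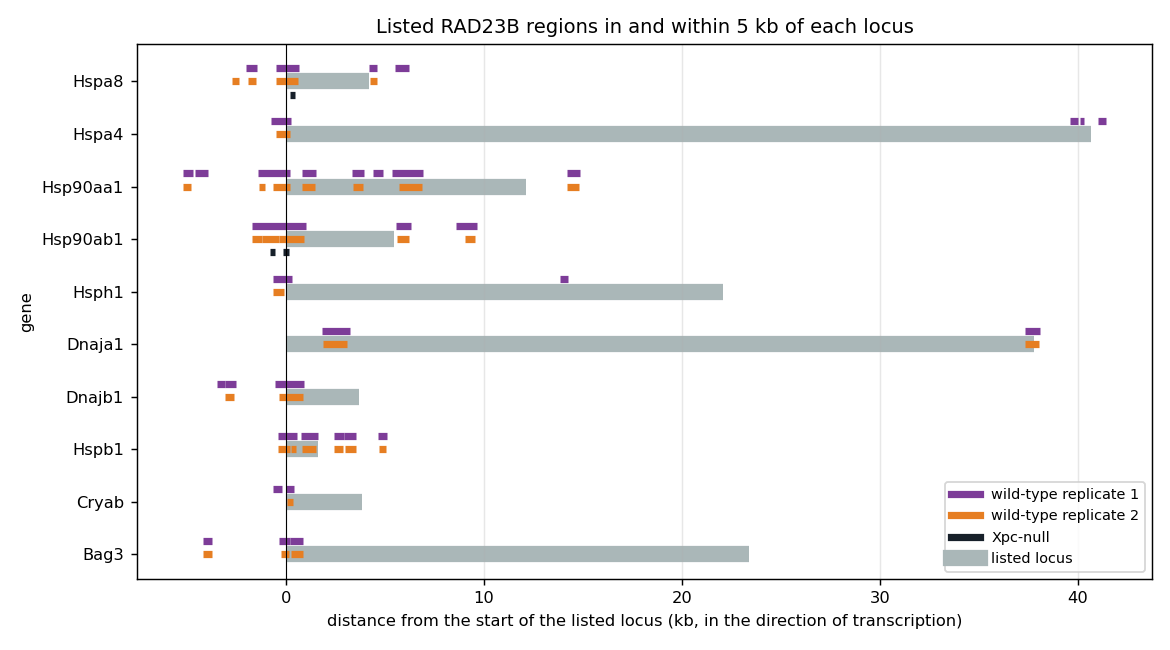
Position of every listed region in and within 5 kb of the 10 loci, in kb from the listed start in the direction of transcription, with a row of bars for each of the 3 lists above, on and below the locus in grey. A region lies over the start at 8 genes in replicate 1 and at 7 in replicate 2, the other regions lie upstream, inside or downstream, and Xpc-null regions stand only at Hspa8 and Hsp90ab1.

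At Hspa8 a region lay over the start in both replicates. In replicate 1 it was chr9:40608599-40609757, with 434 RAD23B and 200 IgG reads and a fold of 2.06. In replicate 2 it was chr9:40608608-40609715, with 217 and 99 reads and a fold of 2.18. Another lay upstream, at chr9:40607091-40607626 in replicate 1, with a fold of 2.38, and at 2.36 in replicate 2. The start region of Hspa4, chr11:53113687-53114715, had folds of 1.62 and 1.73, and that of Hsph1, chr5:150438640-150439609, had 1.59 and 1.88, the latter from a region that ended 99 bp before the start. The start folds of Hspa8, Hspa4 and Hsph1, all well below wild type in RNA, lay within the range of the other members.

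Hsp90aa1 had more regions than any other member, 8 in replicate 1 and 7 in replicate 2. Its start region, chr12:111940695-111942347, had 526 RAD23B and 221 IgG reads and a fold of 2.26. The start region of replicate 2 had 160 and 56 reads and a fold of 2.83, the highest of the start regions in that list. A further region inside the locus, chr12:111939390-111940129, had folds of 2.42 and 2.83. Hsp90ab1 had the longest region of the members in replicate 1, chr17:45709190-45711918, 2728 bp over the start, with 1037 and 517 reads and a fold of 1.91. Replicate 2 listed 3 separate regions there with folds of 1.73, 1.80 and 1.92.

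Among the J proteins, Dnajb1 carried a region over its start, chr8:86131525-86133007, with folds of 1.69 and 1.80, and another upstream with folds of 2.05 and 2.33. The locus listed for Dnaja1 had a region at each end in both replicates. One was chr4:40669019-40670433, with folds of 1.55 and 1.70, and the other chr4:40704512-40705258, with 2.07 and 1.79. Bag3 had the lowest start folds, 1.44 and 1.43 at chr7:135666751-135667322, and a higher region just inside the locus with 1.77 and 1.89.

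The highest fold of any member stood at Hspb1. The region chr5:136366215-136366714 lay downstream of the gene, with 171 RAD23B and 53 IgG reads and a fold of 3.04 in replicate 1 and 101 and 27 reads and a fold of 3.64 in replicate 2. The start region of Hspb1, chr5:136363382-136364356, had folds of 1.72 and 1.98, and a region inside the locus had 2.66 and 2.73. Cryab, low in wild type, had a region from 10 bp inside the locus, chr9:50560872-50561265, with 92 and 57 reads and a fold of 1.53 in replicate 1 and 47 and 22 reads and a fold of 2.09 in replicate 2. A region upstream of Cryab, with a fold of 1.74, was listed in replicate 1 only and overlapped the listed locus of Hspb2.

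**Figure D5:**
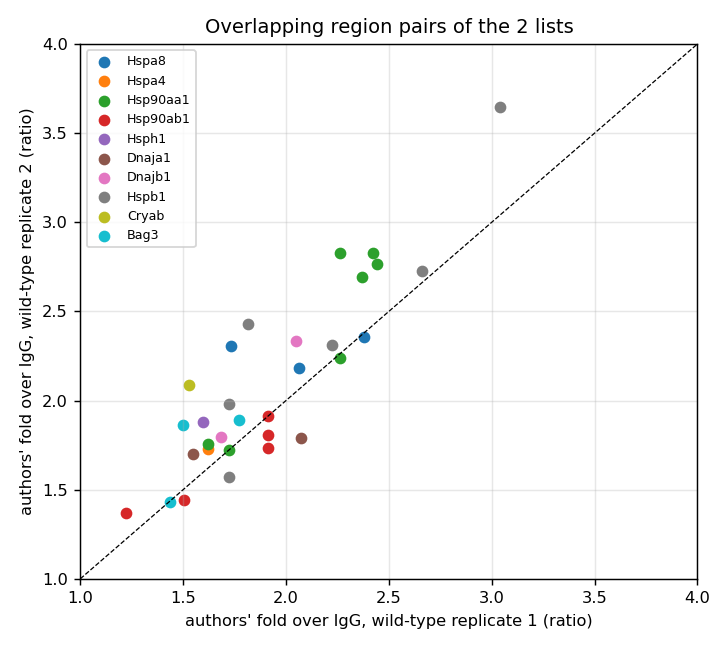
The authors' fold over IgG in wild-type replicate 1 against replicate 2 for the 31 overlapping pairs of regions, 1 point per pair, coloured by gene, with the line of equal fold dashed. Of these, 22 lie above the line, and Hspb1 holds the highest pair, at 3.04 and 3.64.

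In the Xpc-null list 2 of 10 members had a region, Hspa8 and Hsp90ab1, against 3.93% of genes with at least 1 RPKM in wild type and 4.1% of those with a mean of at least 100 RPKM. At Hspa8 the region chr9:40609285-40609536 lay inside the wild-type start region, with 42 reads in the column headed RAD23B, 92 in that headed IgG and a fold of 1.77. At Hsp90ab1 the regions were chr17:45710025-45710325, with 66 and 108 reads and a fold of 1.33, and chr17:45710740-45710985, with 38 and 77 reads and a fold of 1.64. All 3 had fewer reads in the column headed RAD23B than in that headed IgG. Their maxima of 73, 82 and 72 reads exceeded the reads headed RAD23B, so whether they are RAD23B regions is unknown. A member without an entry in this list had no called region, which does not measure the absence of RAD23B.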

How the data were processed

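RNA was measured in 4 libraries and RAD23B chromatin in 3 RAD23B and 3 IgG libraries, grouped by the labels. The submitters' processing notes name Cuffdiff, Cufflinks 2.0.2, TopHat2 2.0.6 and Partek, with the build mm9. The authors deposited RPKM, 1 table per mutant with its own scaling (wild-type columns differ by 1.026 and 1.017 times), an unadjusted p-value, a ratio, and, per the file headers, counts of reads, maxima as RPM and a fold per region. The sources used here do not give the settings of the region caller. Exactly 1 RPKM, in 13841 wild-type values, was read as 0, and 72 rows naming no gene were left out. Genes with at least 1 RPKM in either library were compared as log2 ratios with a pseudocount of 1 and counted at 2-fold. Knockdown and Rad23b-null levels were compared after scaling by the wild-type columns. Regions were joined to loci with at least 1 shared base within 5 kb. Motifs were searched in RefSeq windows, linked by symbol only. Read totals of the RNA libraries are unknown, and the read counts of a region set the precision of its fold. By rule the text names the 10 members, other chaperone genes at least 2-fold apart in all 3 mutants, Hsf1, Hsf2, and the 5 genes closest to Hspa8. Cct4, Stip1, Hspb8, Hspa1a, Hspa1b, neighbours of members and single markers were named after their values were seen. The members and lists were chosen with earlier results of these data known. Nothing says that replicates came from separate cultures. Python 3.11.15, numpy 2.4.6, pandas 2.3.3 and matplotlib 3.10.9 were used, tested on simulated data.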

Additional observations from a re-analysis of the deposited data

How the results depend on the processing

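With 1 library per RNA group, no spread was available, and the regions of low reads in the chromatin lists are the least precise. No paired analysis was possible because the results come from no test and each RNA group has 1 library. A fold of 1.5, chosen after seeing the data, in place of 2 gave 4, 3 and 5 members lower in Rad23b-null, knockdown 1 and knockdown 2, and 1 member higher in knockdown 1. The share of all genes past 1.5-fold was not counted. Among genes with a mean of at least 100 RPKM, the lowest 16% had ratios of at most -0.80, -0.59 and -0.69, so many of them passed it too. Centring on the median of all genes gave a members' median of -0.34 in Rad23b-null, and in knockdown 1 turned Hsp90aa1 to 0.015 and Cryab to 0.14. It also moved the genes at least 2-fold lower and higher from 694 and 713 to 462 and 933 in Rad23b-null, from 504 and 585 to 370 and 750 in knockdown 1 and from 535 and 585 to 395 and 762 in knockdown 2. Requiring an authors' fold of at least 2 left 4 members with a region in each wild-type list and 0 in the Xpc-null list. The share of all genes with such a region was not counted, so whether these counts are usual is unknown. Leaving out either wild-type list gave 10 and 10 members. The remaining 52 alternative values of a summary moved a count by at most 1.5 times or a median by less than the SD of 0.15 between the knockdowns, among them a pseudocount of 0.1, a minimum of 10 RPKM, the median without Cryab (chosen after seeing the data) and the members with coordinates of their own. These differences follow from how each alternative is built.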
